A study of Vigna subterranea with 10 samples.

Results

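Superoxide dismutases are the enzymes that turn superoxide, a reactive form of oxygen made at photosystem I, at the mitochondrial electron chain and by membrane oxidases, into hydrogen peroxide and oxygen. Plants carry a copper/zinc form in the cytosol, chloroplast and peroxisome, an iron form mainly in the chloroplast and a manganese form in the mitochondrion. In Arabidopsis the copper/zinc and iron forms are known to stand in for one another, since low copper lowers the copper/zinc transcripts through the microRNA miR398 while the iron form becomes more abundant.

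Leaf transcripts of these enzymes were measured in bambara groundnut (Vigna subterranea), an African grain legume, after the plants had been moved to cooler rooms. All samples were fully expanded leaflets of genotype S19-3, from 3 plants, taken at 27 °C (optimal), then at 23 °C (sub-optimal) and last at 18 °C (very sub-optimal), with 3 arrays at each temperature and no other treatment. RNA was hybridised to the Affymetrix Soybean GeneChip, on which a probe set is a group of short probes for one soybean transcript, and values are log2 expression values from RMA, called log2 units below. Temperature followed the order of sampling, leaf age and time in the pot, and these cannot be told apart from it.

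Of 36578 soybean probe sets, 6 were taken as superoxide dismutases, 4 because their gene symbol starts with SOD and 2 because they belong to the same soybean transcript cluster as SOD1. The copper/zinc cluster held 3 of them, SOD1 itself and a pair of probe sets with the endings a_at and x_at, written SOD1 a_at and SOD1 x_at below, which the study describes as copper/zinc superoxide dismutase 1. The other 3 were annotated to the iron form, with the symbol SODB on a pair of probe sets (SODB s_at and SODB at) and SODB2 on the last. In Affymetrix names, the ending x_at marks a set with probes that can bind unrelated transcripts, s_at one shared by several genes and a_at one shared by transcripts of a gene, and bambara groundnut RNA on soybean probes can also bind several family members. The family was singled out because its values on these same arrays had shown forms moving in opposite directions. The values and calls of its members are therefore a description, and a call kept under other settings is no independent support.

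A difference is said below to be called when its adjusted p, over all probe sets, was under 0.05 in a limma fit whose error follows the level of a probe set (the variance-trend fit). Array medians lay between 7.89 and 8.11 log2 units, and the mean of the medians at 18 °C lay -0.12 from that at 27 °C. Of the markers found by gene symbol, 7 of 14 leaf probe sets averaged 10 or more, beside 0 of 4 for nodule and 3 of 16 for seed. The other 19 leaf markers were found through the study's descriptions of probe sets it selected on these arrays. Levels of different probe sets cannot be compared, so these counts are a description of the labelled tissue and no test of it. Leaf markers averaged 14.12 to 14.58 on the arrays at 27 °C, 13.94 to 14.12 at 23 °C and 13.19 to 13.84 at 18 °C. Of these 33 leaf markers, 20 were called lower at 18 °C and 3 at 23 °C, each against 27 °C. Over all probe sets, 0.845% and 0.342% were called lower. All 19 found through descriptions were among the 20, and of the 14 found by symbol only a PSAD probe set was. The 3 called at 23 °C were also found through descriptions. These counts cannot be separated from the study's selection, and nothing is read from them. The part of these differences in the results below was not tested. The fit called 0 nodule or seed markers in the 3 comparisons, where 1 nodule marker at most and 0 seed markers had an unadjusted p under 0.05, and a constant-prior limma fit also called 0. In whole leaflets, fewer cells of a type and less RNA per cell cannot be told apart.

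**Figure D1:**
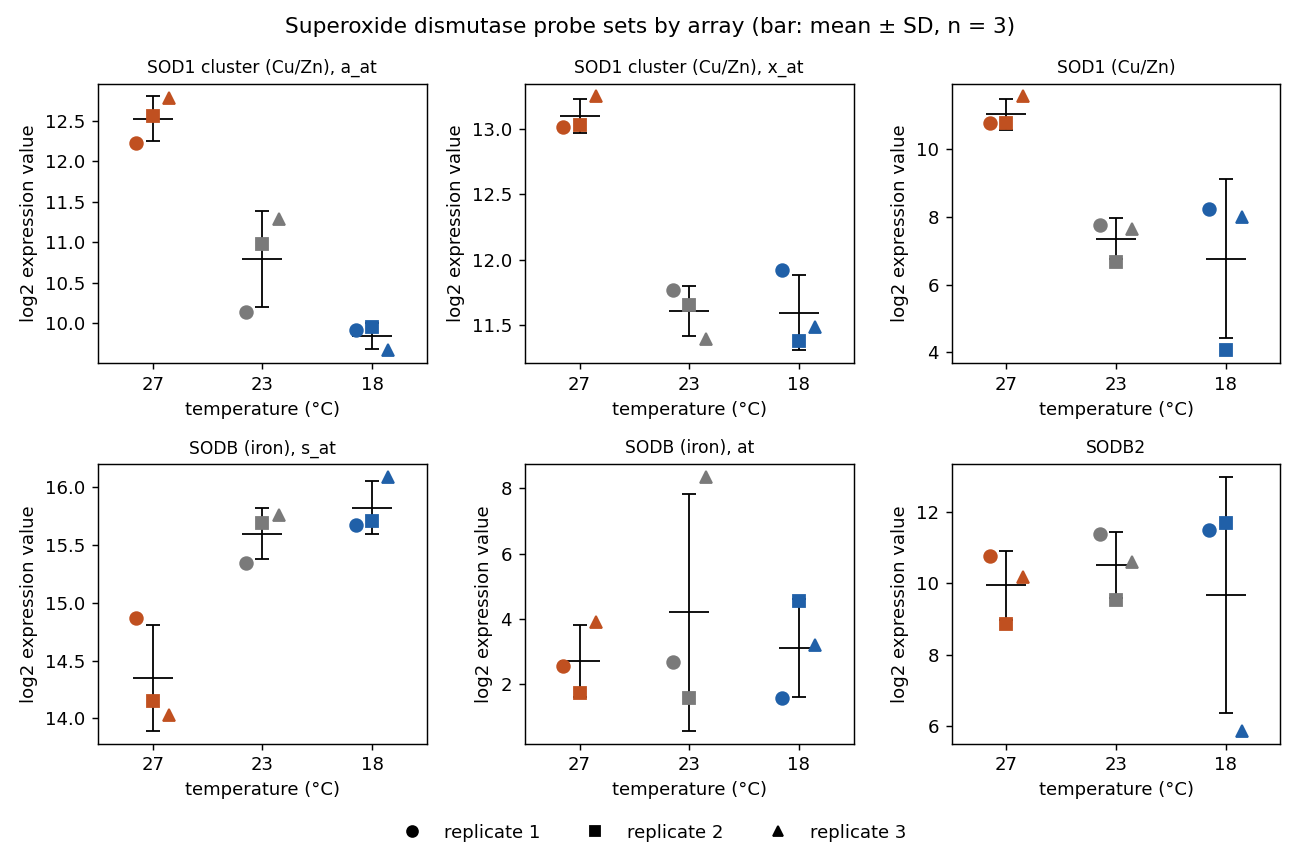
Log2 expression value (vertical axis) of each superoxide dismutase probe set against temperature in °C (horizontal axis), 1 point per array, with the mean and SD of 3 arrays as lines. Every 27 °C array lies above every cooler array in the 3 copper/zinc panels and below every cooler array in the SODB s_at panel, while the SODB at and SODB2 panels overlap; each panel has its own vertical scale.

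The copper/zinc probe sets were lower in cooler leaflets. SOD1 x_at read 13.01, 13.03 and 13.25 log2 units at 27 °C, 11.77, 11.66 and 11.39 at 23 °C and 11.92, 11.38 and 11.48 at 18 °C. All 6 cooler arrays lay below all 3 arrays at 27 °C, and the arrays at 18 °C and 23 °C overlapped. The difference was -1.49 ± 0.19 (SE, n = 3 each) at 23 °C against 27 °C, -1.51 ± 0.19 at 18 °C against 27 °C and -0.01 ± 0.19 at 18 °C against 23 °C. The levels at 18 °C and 23 °C did not differ beyond their spread.

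SOD1 a_at, built from the same soybean sequence, read 12.23, 12.56 and 12.78 at 27 °C, 10.13, 10.97 and 11.28 at 23 °C and 9.91, 9.95 and 9.66 at 18 °C. Here the groups formed 3 steps with no overlap, and the gap between the nearest arrays at 18 °C and 23 °C was 0.18. The differences were -1.73 ± 0.29 at 23 °C against 27 °C, -2.68 ± 0.29 at 18 °C against 27 °C and -0.96 ± 0.29 at 18 °C against 23 °C. The call at 23 °C was lost without any 1 of the 27 °C arrays, without the second 23 °C array and with only the 6 arrays compared, and that at 18 °C was kept without any 1 array.

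SOD1, the third copper/zinc probe set, was dimmer and noisier. Its values were 10.76, 10.79 and 11.56 at 27 °C, 7.76, 6.67 and 7.65 at 23 °C and 8.24, 4.05 and 8.0 at 18 °C. Every cooler array was at least 2.52 log2 units below the lowest array at 27 °C, and the second array at 18 °C stood far below the others. The differences were -3.68 ± 0.97 at 23 °C and -4.27 ± 0.97 at 18 °C, each against 27 °C, and the value at 18 °C was -2.92 without that low array. The call at 18 °C was lost in 13 of 17 alternative settings, among them leaving out each array but that low one, and its direction was the same in all 17.

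The bright probe set of the iron form was higher in cooler leaflets. SODB s_at read 14.87, 14.15 and 14.03 at 27 °C, 15.34, 15.69 and 15.76 at 23 °C and 15.68, 15.70 and 16.09 at 18 °C. All 6 cooler arrays exceeded all 3 arrays at 27 °C, by at least 0.47 at 23 °C and 0.80 at 18 °C, and the arrays at 18 °C and 23 °C overlapped. The differences were 1.25 ± 0.21 at 23 °C against 27 °C, 1.47 ± 0.21 at 18 °C against 27 °C and 0.23 ± 0.21 at 18 °C against 23 °C. The call at 23 °C was lost without the second or the third array of 27 °C or of 23 °C, with only the 6 arrays compared and with the replicate number as a block (2 members called, 0 higher), and that at 18 °C was kept without any 1 array.

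The remaining iron-form probe sets overlapped between temperatures and gave no call. SODB at, built from the same soybean sequence, was near the floor of the array, with 2.55, 1.71 and 3.90 at 27 °C, 2.67, 1.58 and 8.35 at 23 °C and 1.57, 4.55 and 3.20 at 18 °C. The groups overlapped, and probe sets with a mean under 4 had a median replicate SD of 1.67, against 0.18 for those at 14 or more. SODB2 read 10.76, 8.87 and 10.19 at 27 °C, 11.40, 9.55 and 10.61 at 23 °C and 11.49, 11.69 and 5.86 at 18 °C. Its mean was higher at 23 °C than at 27 °C by 0.58 ± 1.26, the direction of SODB s_at, with overlap between the groups. That SE pools all temperatures, with SDs of 0.97 at 27 °C, 0.93 at 23 °C and 3.31 at 18 °C. The third array at 18 °C lay far below the other two, and the difference between 18 °C and 27 °C was -0.26 ± 1.26 with it and 1.65 without it, so the direction rested on 1 array.

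In the variance-trend limma fit 3 of the 6 members were called at 23 °C against 27 °C, 1 higher (SODB) and 2 lower. Of all probe sets, 0.776% were called in that comparison (0.435% higher and 0.342% lower). At 18 °C against 27 °C 4 members were called, 1 higher and 3 lower, where 2.13% of all probe sets were called (1.28% higher and 0.845% lower). At 18 °C against 23 °C 0 members were called by this fit, where 0.943% of all probe sets were called (0.550% higher and 0.394% lower). Unadjusted p fell under 0.05 for 4 members at 23 °C against 27 °C, 4 at 18 °C against 27 °C and 1 at 18 °C against 23 °C, where 9.42%, 12.9% and 10.5% of all probe sets did so. Because the members were chosen for these contrasts, nothing is read from the counts. A limma fit with a constant variance prior and the methods' t-test after Benjamini-Hochberg adjustment each called 0 members in all 3 comparisons. Both ran over all probe sets, whereas the study first kept only those scored as present on every array.

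Groups did not overlap for 4 members at 23 °C and 4 at 18 °C against 27 °C (1 higher and 3 lower each time), where 14.8% and 18.9% of all probe sets did not overlap. The median difference over the 6 members was -0.46 at 23 °C and -0.88 at 18 °C, each against 27 °C, beside -0.0048 and -0.061 over all probe sets. With each array centred on its own median, the differences at 18 °C against 27 °C were -2.57 for SOD1 a_at, -1.39 for SOD1 x_at, -4.15 for SOD1 and 1.59 for SODB s_at.

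**Figure D2:**
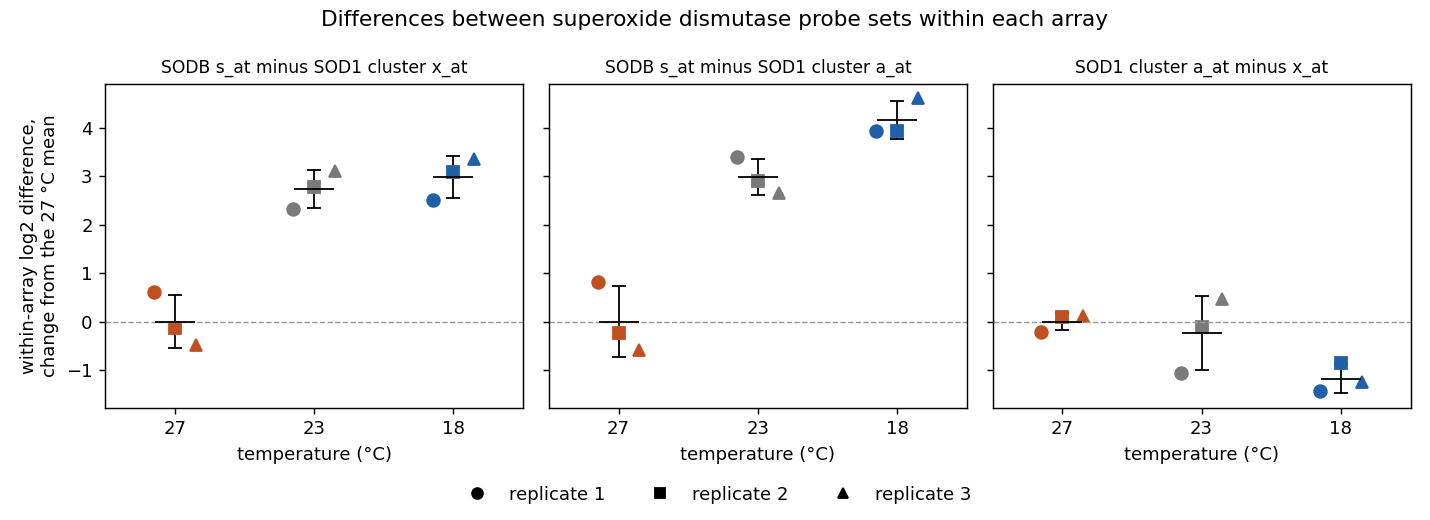
Difference between a pair of superoxide dismutase probe sets within each array, as its change from the mean at 27 °C in log2 units (vertical axis), against temperature in °C; points are arrays and lines the mean and SD of 3. SODB s_at minus either copper/zinc probe set lies above 2 on each cooler array and below 1 at 27 °C, and the copper/zinc pair lies apart from 27 °C only at 18 °C.

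Because levels of different probe sets cannot be set against each other, pairs of members were followed as a difference within each array, taken as its change from the mean at 27 °C. SODB s_at minus SOD1 x_at was 2.74 ± 0.40 (SD, n = 3) at 23 °C and 2.98 ± 0.43 at 18 °C, with -0.47 to 0.61 at 27 °C. The cooler arrays ranged from 2.33 to 3.36, and the ranges at 23 °C and 18 °C overlapped. These probe sets were chosen for their opposite movement on these arrays, so the size of the difference is a description, and it speaks for SODB s_at and not for the other iron-form probe sets. For SODB s_at minus SOD1 a_at the change was 2.98 ± 0.37 at 23 °C and 4.16 ± 0.39 at 18 °C, and the ranges of 2.65 to 3.39 and 3.93 to 4.60 did not overlap.

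The copper/zinc pair from one soybean sequence also parted from each other. SOD1 a_at minus SOD1 x_at lay between -0.21 and 0.11 at 27 °C, between -1.06 and 0.46 at 23 °C and between -1.43 and -0.85 at 18 °C. Thus SOD1 a_at lay further below its mean at 27 °C than SOD1 x_at did on each of the 3 arrays at 18 °C, and at 23 °C the arrays disagreed in sign.

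**Figure D3:**
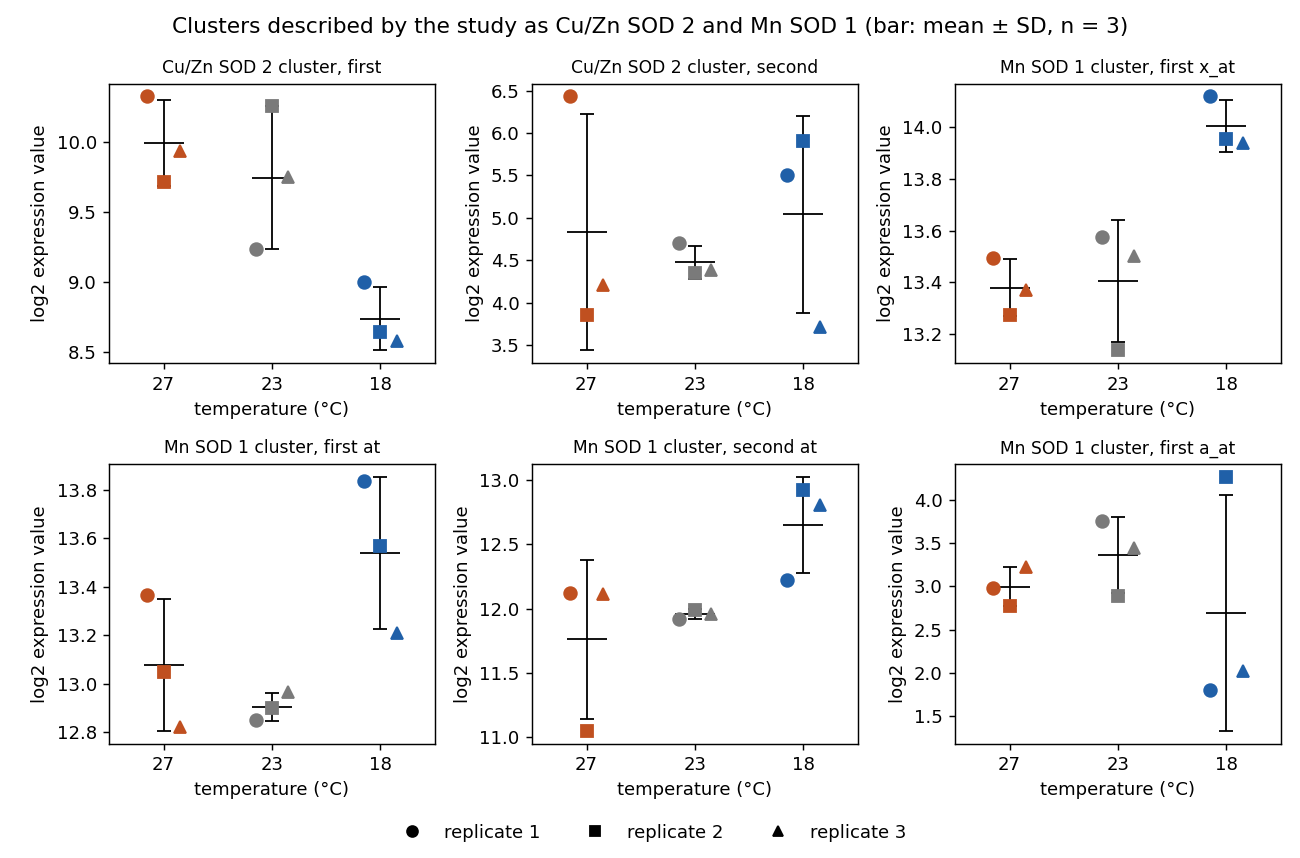
Log2 expression value (vertical axis) of 6 further probe sets from the clusters that the study describes as copper/zinc superoxide dismutase 2 and manganese superoxide dismutase 1, against temperature in °C, 1 point per array, with mean and SD of 3. The brighter manganese panels have their highest means at 18 °C, and 1 copper/zinc 2 panel is lowest there. Each panel has its own vertical scale.

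A further 6 probe sets lie in clusters that the study describes as superoxide dismutases, although their symbols do not start with SOD. They comprise 4 of a manganese superoxide dismutase 1 cluster and 2 of a copper/zinc superoxide dismutase 2 cluster. The 2 that carry a description were picked by the study on these same arrays. At 23 °C none of the 6 passed the test against 27 °C (the variance-trend limma fit called 0, and 0 had an unadjusted p under 0.05).

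The mitochondrial manganese form had its highest means at 18 °C on its brighter probe sets, without a call by the variance-trend fit. Its x_at probe set read 13.49, 13.27 and 13.37 at 27 °C, 13.57, 13.14 and 13.50 at 23 °C and 14.12, 13.95 and 13.94 at 18 °C. All 3 arrays at 18 °C exceeded the other 6, by 0.62 ± 0.15 (limma adjusted p = 0.0577) over 27 °C and 0.60 ± 0.15 (limma adjusted p = 0.107) over 23 °C, neither of which passed the threshold. With each array centred on its median, the difference from 27 °C was 0.74 and passed it (limma adjusted p = 0.0372). Of the alternative settings, 5 passed the threshold, centring among them, and 13 did not. Over all of these settings the difference lay between 0.47 and 0.74.

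Both at probe sets of the cluster also had their highest means at 18 °C, without a call. The at probe set from the second sequence of the manganese cluster read 12.12, 11.05 and 12.12 at 27 °C, 11.92, 11.99 and 11.96 at 23 °C and 12.23, 12.93 and 12.80 at 18 °C, a difference of 0.89 ± 0.29 (limma adjusted p = 0.181) at 18 °C against 27 °C, and all 3 arrays at 18 °C exceeded the other 6. The at probe set from the first sequence read 13.37, 13.05 and 12.82, then 12.85, 12.90 and 12.96, and then 13.84, 13.57 and 13.21 in the same order of temperatures, with 0.46 ± 0.19 (limma adjusted p = 0.321) at 18 °C against 27 °C. Its arrays at 18 °C overlapped those at 27 °C and exceeded those at 23 °C. The a_at probe set averaged 2.99 at 27 °C, 3.36 at 23 °C and 2.69 at 18 °C and stayed between 1.80 and 4.27 on all 9 arrays, near the floor of the array.

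In the copper/zinc 2 cluster, the brighter probe set, from the first sequence of the cluster, read 10.32, 9.71 and 9.94 at 27 °C, 9.23, 10.25 and 9.75 at 23 °C and 9.0, 8.64 and 8.58 at 18 °C. The arrays at 18 °C lay below all others, with a difference of -1.25 ± 0.36 from 27 °C that missed the threshold (limma adjusted p = 0.122). The arrays at 23 °C overlapped those at 27 °C, whereas those of the copper/zinc 1 cluster did not, and the difference between the clusters was not tested. Its dimmer probe set, from the second sequence, stayed at 3.72 to 6.43 on all 9 arrays, and its groups overlapped.

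**Figure D4:**
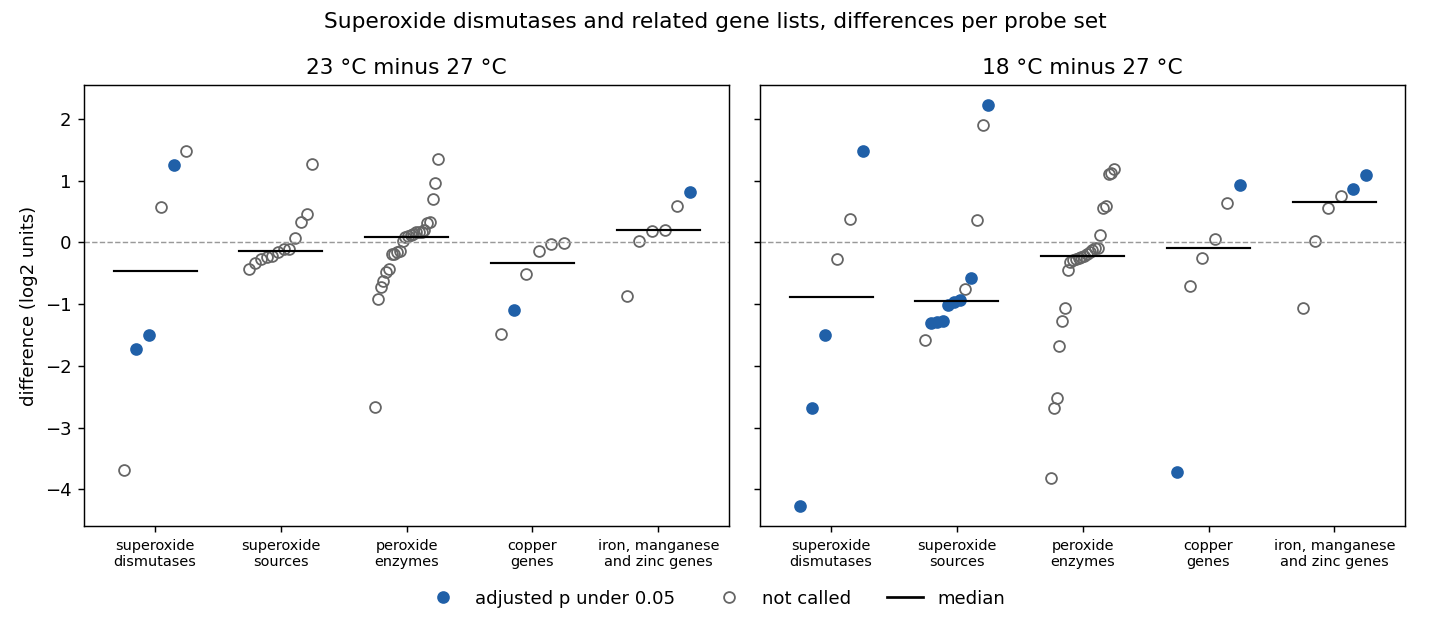
Difference from 27 °C in log2 units (vertical axis) of each probe set in the superoxide dismutase family and 4 related gene lists (horizontal axis), at 23 °C on the left and at 18 °C on the right; filled points passed the threshold of the variance-trend limma fit and lines are medians. Called superoxide sources appear at 18 °C only, with 7 lower and 1 higher, while no peroxide-removing enzyme is filled in either panel.

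Sources of superoxide were represented by 12 probe sets of photosystem I subunits and respiratory burst oxidase, the plasma membrane enzyme that makes superoxide outside the cell. At 23 °C against 27 °C 0 were called by the variance-trend or the constant-prior limma fit, and 4 had an unadjusted p under 0.05. At 18 °C against 23 °C 5 were called lower and 0 higher, where 0.394% of all probe sets were called lower and 0.550% higher. At 18 °C against 27 °C 2.13% of all probe sets were called (0.845% lower and 1.28% higher). In that comparison 7 of the list were called lower and 1 higher, with a median difference of -0.95. Those lower were all photosystem I subunits, 1 of 5 probe sets of PSAD (-1.28 ± 0.26, limma adjusted p = 0.028; the other 4, not called, lay between -1.58 and 1.90), subunit O (-1.27), subunit F (-1.30) and a pair of probe sets each for subunit l (-0.58 and -0.93) and subunit H2 (-1.01 and -0.96). Respiratory burst oxidase protein F read 7.86, 8.41 and 8.21 at 27 °C, 9.43, 10.05 and 8.82 at 23 °C and 10.26, 10.68 and 10.21 at 18 °C, a difference of 2.23 ± 0.39 at 18 °C against 27 °C (limma adjusted p = 0.014). This call was lost without the first array at 27 °C or the first or second at 18 °C, and that of PSAD without the second or the third at 27 °C or any 1 at 18 °C. Of the list, 7 were found through descriptions of probe sets selected by the study on these arrays. All 7 were called at 18 °C against 27 °C, beside 1 of the 5 found by symbol, all PSAD. The 5 called lower at 18 °C against 23 °C were among those found through descriptions. Neither the number nor the direction of the calls is therefore independent evidence, and nothing is read from them beside the shares of all probe sets. Several photosystem I values exceeded 16, and with values limited to 0 to 16 the list had 4 calls. Without the first array at 18 °C it had 5.

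Enzymes that remove hydrogen peroxide, the product of superoxide dismutase, or recycle the reductants for it gave no call against 27 °C. Of 24 probe sets for catalase, ascorbate peroxidase, glutathione peroxidase, peroxiredoxin, dehydroascorbate reductase and glutathione reductase, 0 were called at 23 °C or at 18 °C against 27 °C by the variance-trend and constant-prior limma fits, with median differences of 0.093 and -0.23. Unadjusted p was under 0.05 for 2 of them at 23 °C and 5 at 18 °C, against 9.42% and 12.9% of all probe sets, and the calls over all probe sets were 0.776% and 2.13%. For a list of 24, 0 calls is near those shares, and nothing is read from it. Only 11 of the 24 had a mean of 10 or more, and dimmer probe sets spread more between replicates, which makes a call harder. The symbol PRX on some of the 24 may stand for other peroxidases. Catalase 2, a peroxisomal enzyme, had 16.73, 16.68 and 16.71 at 18 °C, against 17.11, 17.06 and 17.03 at 23 °C, a difference of -0.36 ± 0.07 (limma adjusted p = 0.0345) that was lost without any 1 array.

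Of 6 copper gene probe sets, 1 was called higher (PAA1) and 1 lower (plantacyanin) at 18 °C against 27 °C. At 23 °C against 27 °C 1 was called lower (a Cupredoxin superfamily protein), and at 18 °C against 23 °C 1 higher (PAA1). Over all probe sets, 2.13%, 0.776% and 0.943% were called in these comparisons, in the same order, and nothing is read from the counts. CCS, the chaperone that loads copper into copper/zinc superoxide dismutase, read 10.11, 10.26 and 11.10 at 27 °C, 10.33, 10.15 and 9.45 at 23 °C and 10.19, 10.09 and 10.46 at 18 °C. Its groups overlapped, with differences of -0.52 ± 0.34 at 23 °C and -0.25 ± 0.34 at 18 °C against 27 °C, neither called. PAA1, a copper pump of the chloroplast envelope in Arabidopsis, read 13.34, 12.95 and 12.78 at 27 °C, 12.96, 13.06 and 12.98 at 23 °C and 14.09, 13.84 and 13.92 at 18 °C on its s_at probe set. It was higher at 18 °C than at 27 °C by 0.93 ± 0.16 (limma adjusted p = 0.0125) and than at 23 °C by 0.95 ± 0.16 (limma adjusted p = 0.0203), while its at probe set differed by 0.63 ± 0.24 (limma adjusted p = 0.257) from 27 °C. The PAA1 call against 27 °C was lost without the second or the third array at 27 °C or the first at 18 °C, and that against 23 °C without the first or the third array at 23 °C or any 1 at 18 °C.

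Plantacyanin, a small secreted blue copper protein, read 10.18, 10.96 and 10.52 at 27 °C, 9.85, 9.15 and 8.21 at 23 °C and 7.60, 6.23 and 6.67 at 18 °C. The 3 temperatures did not overlap, and it fell at 18 °C against 27 °C by 3.72 ± 0.54 log2 units (limma adjusted p = 0.00518). A Cupredoxin superfamily protein, from the same broad class of copper proteins, had 11.90, 11.47 and 11.95 at 23 °C, against 12.77, 12.95 and 12.90 at 27 °C, a difference of -1.09 ± 0.17 (limma adjusted p = 0.0148) that was lost without the second or the third array at 27 °C. Both entered the list through the study's descriptions of probe sets it selected on these arrays, so their calls are not independent evidence.

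Among 6 probe sets for iron, manganese and zinc handling, those called were a pair annotated as iron-sulphur cluster biosynthesis family protein. Such proteins help to assemble the iron-sulphur centres of other proteins. At 18 °C 2 were called higher and at 23 °C 1, each against 27 °C, where 2.13% and 0.776% of all probe sets were called. The pair also entered through the study's descriptions of probe sets it selected on these arrays, so its calls are not independent evidence. One of them had 13.41, 13.31 and 13.14 at 18 °C, against 12.37, 12.19 and 12.02 at 27 °C (1.10 ± 0.15, limma adjusted p = 0.00356). The other had 13.29, 13.11 and 13.06 at 18 °C, against 12.17, 12.25 and 12.43 at 27 °C (0.87 ± 0.14, limma adjusted p = 0.00915), and it was also higher by 0.82 ± 0.14 at 23 °C (limma adjusted p = 0.0233). That call at 23 °C was lost on leaving out any 1 array of 23 °C or 27 °C, and the call at 18 °C without the first array at 18 °C. DMT1, a symbol used for divalent metal transporters, differed by 0.55 at 18 °C against 27 °C (limma adjusted p = 0.135).

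The probe sets most like the brightest copper/zinc and iron members were sought among 846 named candidates whose mean was 10 or more, by Pearson's r over the 9 arrays. Closest to SOD1 x_at were GRIM-19 protein (r = 0.972), a phosphoglycerate/bisphosphoglycerate mutase family protein (r = 0.963) and PHD4 (r = 0.955). GRIM-19 protein averaged 13.20 ± 0.17 at 27 °C, 12.46 ± 0.11 at 23 °C and 12.32 ± 0.16 at 18 °C (SD, n = 3), highest at 27 °C like SOD1 x_at. Closest to SODB s_at were a pleckstrin homology domain-containing protein (r = 0.955), an F-box/WD40 protein (r = 0.939) and BAX inhibitor 1 (r = 0.938), a membrane protein known as a suppressor of cell death. BAX inhibitor 1 averaged 14.02 at 27 °C, 14.77 at 23 °C and 15.29 at 18 °C. These correlations run over arrays that share 3 temperatures and are a description of likeness only. The candidates included probe sets named through the study's descriptions, which it selected on these arrays, and all those listed but PHD4 were named in this way. Between the members themselves, SODB s_at had r = -0.935 with SOD1 x_at and r = -0.877 with SOD1 a_at over the same arrays.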

How the data were processed

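The deposited log2 values were produced by the authors with RMA, after removing probe pairs that hybridised weakly to bambara groundnut genomic DNA. The study chose its hybridisation threshold by the number of changed probe sets each one gave. Whether the deposited table was made with it, and which RMA version was used, is not given in the sources read here. Of all values 1312 lay above 16 and 1434 below 0, beyond the log2 range of a scan, so a further step is unknown and differences are in log2 units, which may not equal log2 fold changes. The column of the 1 genomic DNA array was not used. Names came from an array annotation (8365 probe sets with 1 symbol, 356 with several, 27857 with none) and from the study's descriptions of 667 probe sets, used as names only.

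All 36578 soybean probe sets and 9 arrays entered 1 model in limma 3.58.1 (R 4.3.3; lmFit, eBayes with trend and robust, 6 residual degrees of freedom, two-sided), with no filter and Benjamini-Hochberg adjustment, called at 0.05. This is the variance-trend fit. SEs come from it. It was tested on simulated data. The number of arrays limits the precision, and p-values reflect only the spread among leaflets taken from 3 plants. The fit took the 9 arrays as independent samples, although the study sampled the same 3 plants at each temperature. The labels do not tie arrays to plants, so the plant was not part of the model.

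The members and gene lists were chosen with earlier results of these data known. Named genes were all members, the further superoxide dismutase clusters, list members called in any comparison (at most 8 per list) and the 3 probe sets most like the brightest copper/zinc and iron members. CCS, DMT1 and the second PAA1 probe set were named after their values had been seen. Alternatives were other variance priors, the methods' t-test, 6 arrays only, centring, quantile normalisation, filters, values limited to 0 to 16, a replicate block, leaving out each array and leaving out shared-probe sets. No sequences were printed.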

Additional observations from a re-analysis of the deposited data

How the results depend on the processing

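Of the 6 superoxide dismutase probe sets, 4 were called at 18 °C and 3 at 23 °C, each against 27 °C. A constant variance prior in limma and the methods' t-test left 0 in each, and leaving out probe sets ending in _x_at or _s_at left 2 and 1. Leaving out 1 array gave 3 to 4 and 1 to 4, with 1 call at 23 °C without the second or the third array at 27 °C or the second at 23 °C. At 18 °C against 23 °C 0 were called under every setting tried. Both calls of SOD1 x_at were lost under 2 of 18 settings, the constant-prior fit and the t-test. At the thresholds of the methods, a corrected p under 0.01 and a fold above 2, the t-test took 0 members in each comparison. With the same thresholds on the uncorrected p it took 2 at 23 °C and 3 at 18 °C, each against 27 °C. Of all 36578 probe sets it took 618 and 930 in these comparisons. The study first kept only probe sets scored as present on every array, a filter not applied here. These t-test counts therefore do not show which members the study's own test took. The members were chosen for these contrasts, so nothing is read from their counts.

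Replicate numbers are not tied to plants by the labels, and deviations of same-numbered arrays correlated at -0.013 to 0.013 over all probe sets and at -0.033 to 0.207 (median 0.041) over those with a mean of 10 or more. There, arrays with different numbers correlated at -0.181 to 0.123 (median -0.018), so not every same-numbered pair deviated together. With the replicate number as a block, 2 members were called at 23 °C against 27 °C (SODB was lost) and 4 at 18 °C against 27 °C. The block left 0 calls for iron, manganese and zinc genes at 23 °C against 27 °C and for peroxide enzymes at 18 °C against 23 °C, and changed no other count of members or lists by over 1.5 times.

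The calls of the 4 related lists were extended to these settings after the data had been seen. The constant-prior fit and the t-test called 0 in each list and comparison. For superoxide sources, limiting values to 0 to 16 gave 4 at 18 °C against 27 °C and 2 at 18 °C against 23 °C, and leaving out 1 array gave 5 to 8 and 4 to 5. For copper genes the ranges without 1 array were 1 to 3 at 18 °C against 27 °C, 0 to 1 at 23 °C against 27 °C and 0 to 1 at 18 °C against 23 °C, and fitting only the 6 arrays compared gave 0 at 23 °C. For iron, manganese and zinc genes the ranges were 1 to 2 at 18 °C and 0 to 1 at 23 °C, each against 27 °C. Their count at 23 °C was 0 with 6 arrays and 2 with a mean of at least 10, which also gave 1 at 18 °C against 23 °C. For peroxide enzymes the count at 18 °C against 23 °C was 0 without any 1 array, with 6 arrays, centring, quantile normalisation or limited values, and 2 with a mean of at least 10. That filter gave 1 at 18 °C and 1 at 23 °C against 27 °C, and centring gave 1 at 18 °C against 27 °C.

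Over all probe sets, 284, 778 and 345 were called at 23 °C against 27 °C, at 18 °C against 27 °C and at 18 °C against 23 °C. In the same order, a constant prior gave 1, 38 and 2, the t-test 1, 0 and 3, the 6 arrays alone 159, 672 and 160, and a mean of at least 10 gave 524, 1322 and 798. Leaving out 1 array gave 96 to 248, 387 to 857 and 109 to 265. Centring moved the split of higher to lower calls to 613 and 235 at 18 °C against 27 °C, beside 469 and 309, and to 292 and 99 at 18 °C against 23 °C, beside 201 and 144.

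Some differences that were not called changed sign. With centring SOD1 x_at differed by 0.097 at 18 °C against 23 °C, and with quantile normalisation the manganese x_at probe set by -0.048 at 23 °C against 27 °C. Leaving out 1 array spanned, at 18 °C against 23 °C, -0.18 to 0.095 for SOD1 x_at, -1.33 to 0.76 for SOD1, -1.84 to 1.08 for SODB2 and -2.41 to 0.98 for SODB at. At 18 °C against 27 °C it spanned -1.27 to 1.65 for SODB2, -0.28 to 1.01 for the dimmer copper/zinc 2 probe set, -0.34 to 1.15 for SODB at and -1.08 to 0.15 for the manganese a_at probe set. At 23 °C against 27 °C it spanned -0.50 to 0.0079 for the brighter copper/zinc 2 probe set, -0.84 to 0.44 for the dimmer copper/zinc 2 probe set, -0.59 to 2.79 for SODB at, -0.059 to 0.16 for the manganese x_at probe set and -0.16 to 0.37 for the second manganese at probe set. The cause of these changes was not tested.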
